A study of Mus musculus with 6 samples.

Results

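Autophagy cargo receptors are adaptors that bind ubiquitin on a cargo at one end and lipidated LC3 or GABARAP proteins on the growing autophagosome membrane at the other, so that the cargo is engulfed selectively. The transcripts of 8 such genes were followed by symbol: Sqstm1, Nbr1, Optn, Tax1bp1, Calcoco1, Calcoco2, Tollip and Tbk1, the last being the kinase that phosphorylates several of the adaptors. They are 8 of the 35186 gene symbols counted. All 8 were kept by the filter on low counts, among 8895 genes tested. Calcoco2 was included because of its own counts, present in each of 3 libraries of one genotype and in none of 3 of the other. It was thus selected on the measured values of this contrast, and its difference between the genotypes is given as a description with no test. The remaining 7 were included for what they encode.

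The RNA came from spleen memory B cells sorted for binding the hapten NP, about 1000 cells per library, in mice of the C57BL/6J strain. The WT group (3 libraries) is labelled wild type, and the DKO group (3 libraries) is labelled Nix-/-Bnip3-/-, where Nix is another name of Bnip3l. The promoter or Cre line behind the deletions, the age of the mice and the number of animals per library are not stated in the labels, so replicates may be technical, and each p reflects only how far these libraries spread. NIX and BNIP3 are receptors that sit in the outer mitochondrial membrane and bind LC3 directly, whereas the cargo receptors studied here reach damaged mitochondria, bacteria and protein aggregates through ubiquitin chains. NDP52, the product of Calcoco2, and optineurin, the product of Optn, are the adaptors best known for mitophagy that depends on PINK1 and parkin, and TBK1 strengthens the grip of optineurin on ubiquitin and LC3. Whether the mouse protein of Calcoco2 has each of the binding regions described for NDP52 was not examined here.

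Depth and agreement between libraries limit every value below. Totals were 312908 to 500527 counts in WT and 444461 to 517057 in those labelled DKO, and 17831 to 18486 against 23580 to 24787 genes had at least 1 count. Values are given as counts and as normalized CPM, counts over an effective library size scaled by TMM (trimmed mean of M values), on which 3 counts stood for 5.52 to 15.8 normalized CPM. The TMM factors were 0.695 to 0.812 in WT and 1.28 to 1.38 in those labelled DKO. A single count thus stood for 3.86 to 5.25 normalized CPM in WT and 1.84 to 2.26 under the DKO label. Counts that separate the groups can therefore overlap, or change direction, once normalized. Across the tested genes the Spearman correlation was 0.152 to 0.157 between WT libraries and 0.466 to 0.496 between libraries labelled DKO (across genes, which are not independent replicates). Of the 2 targeted genes, Bnip3l had a higher mean under the DKO label despite its labelled deletion (log2 fold change 1.76, SE 1.19, edgeR adjusted p = 0.539). It had 1, 8 and 0 counts in WT (each such triplet is in the order of libraries 1, 2 and 3) against 10, 16 and 41 under the DKO label. Bnip3 had a lower mean, with 25, 62 and 6 against 2, 24 and 11 (log2 fold change -2.4996, SE 1.13, edgeR adjusted p = 0.412). Counts per gene do not show which part of a gene was deleted. In both genes the groups overlapped once normalized, and genotypes are given here as labelled. All 10 B cell markers had counts, though Cd79a had only 3, 0 and 0 against 0, 2 and 4. In normalized CPM the mean was higher under the DKO label for 2 of the 10, Ms4a1 (28, 0 and 8 against 42, 70 and 65 counts) and Cd22, and lower for the other 8, among them Blnk, whose groups did not overlap (106, 21 and 58 against 25, 36 and 37).

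Calcoco2 (chromosome 11, 96099326 to 96111964, minus strand, mm10) had no count in WT and 21, 52 and 24 counts under the DKO label, or 47.5, 95.7 and 46.5 normalized CPM. Every library labelled DKO was therefore above every WT library, which is how the gene was chosen. Its mean of 63.2 ± 28.1 normalized CPM (SD, n = 3) was at least 13.5-fold higher than the floor that 3 counts in the whole WT group would give. This bound was 8.05-fold without WT library 2, which also shrinks the group behind the floor, and 23.8-fold with library totals alone as the scale. A count of 0 allowed up to 15.7, 11.6 and 15.8 normalized CPM in the 3 WT libraries, counting error alone considered. Among the members, Sqstm1 came nearest to the same pattern, with 0 counts in WT library 1 only.

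The pattern of counts in all 3 libraries labelled DKO and in no WT library was shared by 1144 of the 35186 symbols (3.25%), while 44 had the opposite pattern. With any 1 library left out these counts were 1570 to 2088 and 107 to 142. Most of these genes had few counts: 26 of the 1144 passed the filter on low counts (0.292% of tested genes). Among the 1144, Calcoco2 ranked 2 by its lowest DKO level and 26 by its summed DKO count of 97, both taken from the values that selected it. The number of genes with a count also differed between the groups, as given above, and its part in this pattern was not tested.

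The 5 tested genes with a pattern most like that of Calcoco2 were taken by Pearson correlation of log2 CPM over the 6 libraries, leaving out predicted genes, pseudogenes and immunoglobulin segments. Ahctf1, which encodes the nucleoporin ELYS, had 6, 9 and 7 counts in WT against 74, 131 and 75 under the DKO label (r = 0.998). Cse1l, a nuclear export factor for importin alpha, had 9, 12 and 8 against 76, 102 and 71 (r = 0.992). Rsl1d1, a nucleolar protein gene, had 0 throughout WT and 17, 32 and 11 under the DKO label (r = 0.991). Brip1os and Prelp followed at r = 0.989 and 0.988, with Prelp, a gene of an extracellular matrix protein, also at 0 in each WT library. In all 5, library 2 labelled DKO had the most counts. Such likeness was common, since 290 of 8894 genes (3.26%) exceeded r = 0.9, and the points share depth and scaling.

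**Figure D1:**
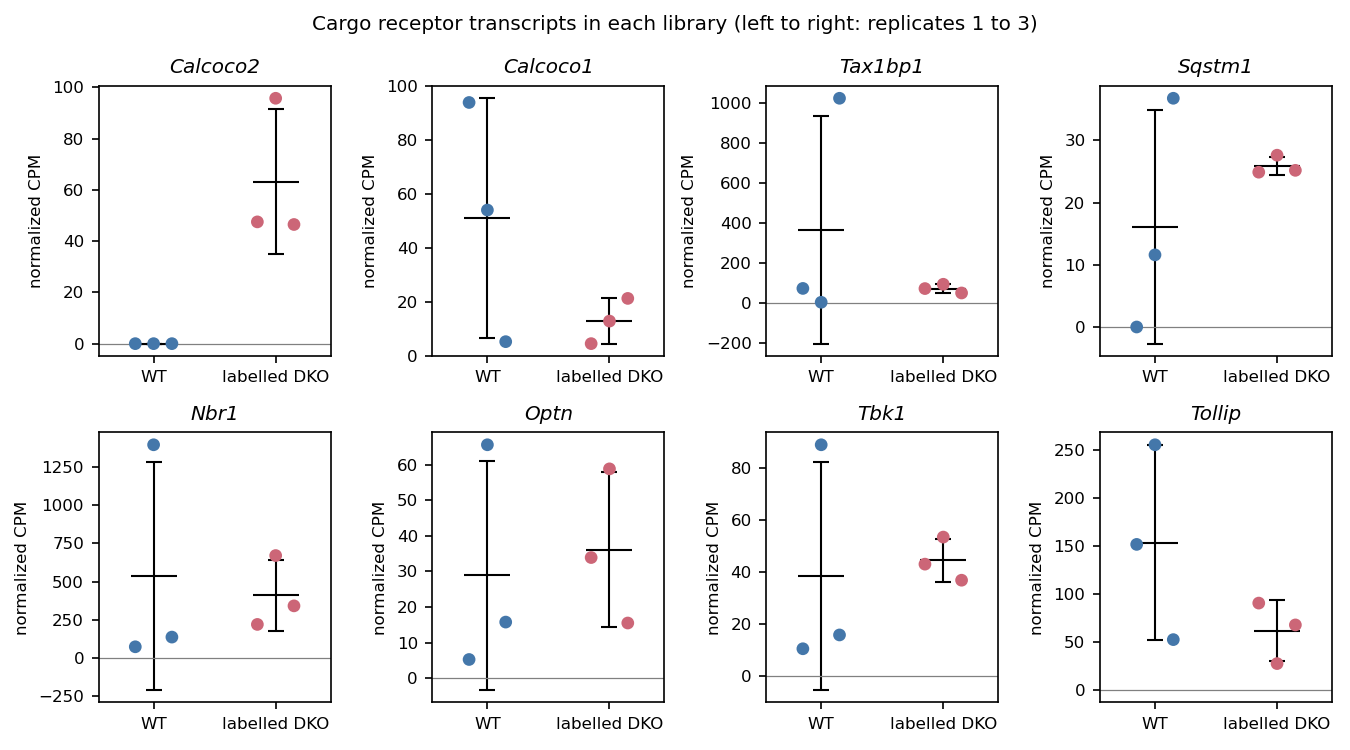
Normalized CPM (vertical axes, linear, a scale for each gene) of the 8 cargo receptor genes in 3 WT libraries (blue) and 3 libraries labelled DKO (red), with the mean (horizontal bar) and SD (error bars, which can reach below 0). Calcoco2 was at 0 in each WT library and between 46.5 and 95.7 in those labelled DKO, and for each of the other 7 genes the groups overlapped.

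Outside Calcoco2, 0 of the 7 members had groups that did not overlap, where 12.8% of the 8895 tested genes did so with higher values and 6.39% with lower values in the libraries labelled DKO. In edgeR's quasi-likelihood test 0 of these 7 members passed an adjusted p of 0.05, and 0% of all genes did (0 of 8895, with 12.1% at an unadjusted p under 0.05). DESeq2 called 0 of those it gave an adjusted p (6 of the 7 when run on all genes, where it called 1.95% of genes, and 7 when run on the kept genes, where it called 7.08%). In edgeR, at an unadjusted p under 0.05 there were likewise 0 of the 7 members, the smallest being 0.106 for Calcoco1. Of the 7 log2 fold changes 3 were above 0 and 4 below, with a median of -0.38 against -0.17 for all tested genes, of which 45.5% were above 0. With library totals alone as the scale, 4 were above 0 and 3 below, the median was 0.53 against 0.62, and 64.3% of all genes were above 0.

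The paralogues of Calcoco2 lay the other way in their means. Calcoco1, which encodes a receptor for autophagy of the endoplasmic reticulum (chromosome 15, 102706777 to 102722178, minus strand), had 18, 14 and 1 counts in WT against 2, 7 and 11 under the DKO label, or 94.0, 54.1 and 5.25 against 4.52, 12.9 and 21.3 normalized CPM. WT libraries 1 and 2 were above all 3 libraries labelled DKO, while WT library 3 fell among them. The means were 51.1 ± 44.5 and 12.9 ± 8.39 (SD, n = 3), with a log2 fold change of -1.95 (SE 1.11, edgeR adjusted p = 0.473).

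Tax1bp1, whose product clears protein aggregates and also restrains NF-kB signalling with A20 (chromosome 6, 52713729 to 52766780, plus strand), rested on a single library. Its counts were 14, 1 and 195 in WT and 32, 51 and 26 in those labelled DKO, or 73.1, 3.86 and 1024 against 72.4, 93.9 and 50.4 normalized CPM. WT library 3 held 77.7% of the summed normalized CPM, and WT library 2 was the lowest of the 6. With all libraries Tax1bp1 was at a log2 fold change of -2.34 (SE 1.51, edgeR adjusted p = 0.518), and without WT library 3 it turned to 0.93 (SE 1.17, adjusted p = 0.692).

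Sqstm1 encodes p62, the first described of these adaptors, which condenses ubiquitinated proteins and also binds KEAP1 (chromosome 11, 50199366 to 50210827, minus strand). It had 0, 3 and 7 counts in WT against 11, 15 and 13 under the DKO label, or 0, 11.6 and 36.8 against 24.9, 27.6 and 25.2 normalized CPM. On the normalized scale the libraries labelled DKO lay within a coefficient of variation of 5.78%, while the WT libraries lay on both sides of them. With library totals alone as the scale, each library labelled DKO was above every WT library. A count of 0 in WT library 1 allows up to 15.7 normalized CPM. Means were 16.1 ± 18.8 and 25.9 ± 1.498 (SD, n = 3), and the log2 fold change came to 0.69 (SE 1.12, edgeR adjusted p = 0.813), between 0.13 without WT library 1 and 1.99 without WT library 3.

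Nbr1, a receptor for aggregates and peroxisomes that forms filaments with p62 (chromosome 11, 101552149 to 101581951, plus strand), had the most counts of the members when summed over the 6 libraries. By count, Tollip led in WT library 1 and Tax1bp1 in WT library 3. Nbr1 had 14, 361 and 26 counts in WT against 97, 364 and 176 under the DKO label, or 73.1, 1395 and 137 against 219, 670 and 341 normalized CPM. WT library 2 was the highest of the 6 and the other WT libraries the lowest. The log2 fold change of -0.38 (SE 1.42, edgeR adjusted p = 0.931) turned to 1.96 (SE 1.12, adjusted p = 0.407) without WT library 2 and to 0.53 with library totals alone as the scale.

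Optn (chromosome 2, 5020642 to 5064051, minus strand) and Tbk1 (chromosome 10, 121546455 to 121586787, minus strand) had similar means, 28.9 ± 32.3 against 36.1 ± 21.8 and 38.4 ± 43.8 against 44.4 ± 8.38 normalized CPM (SD, n = 3). Optn had 1, 17 and 3 counts against 15, 32 and 8, or 5.22, 65.7 and 15.8 against 33.9, 58.9 and 15.5 normalized CPM, with a log2 fold change of 0.29 (SE 1.06, edgeR adjusted p = 0.932). Tbk1 had 2, 23 and 3 counts against 19, 29 and 19, or 10.4, 88.9 and 15.8 against 43.0, 53.4 and 36.8 normalized CPM, with a log2 fold change of 0.18 (SE 1.01, edgeR adjusted p = 0.962). In both genes WT library 2 was the highest of the 6 and WT library 1 the lowest. Without WT library 2 the log2 fold changes were 1.75 for Optn and 1.74 for Tbk1. They turned below 0 without WT library 1, at -0.19 and -0.25, and without WT library 3, at -0.01 and -0.18, and Optn did so too without library 2 labelled DKO, at -0.28. An antisense gene, 4930551O13Rik, overlaps Optn and had 0, 0 and 1 counts against 2, 5 and 0, and without a known strand setting the reads of such a pair cannot be told apart.

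Of the 28 pairs of members, 15 were correlated above 0 over the 6 libraries and 13 below, as a description over points that share library and depth. The 3 highest, which were singled out after their values were seen, joined Nbr1, Optn and Tbk1. Pearson's r of log2 CPM was 0.955 for Nbr1 with Tbk1 (Spearman's rho 0.943), 0.922 for Optn with Tbk1 (0.943) and 0.897 for Nbr1 with Optn (0.829). Without WT libraries 1 and 2, which lay farthest from the median, r was 0.838, 0.759 and 0.702. The lowest pair was Sqstm1 with Calcoco1, at -0.892 (rho -0.657), and at -0.427 without the same 2 libraries. Of all pairs of tested genes, 1.42% were at or above the r of Nbr1 with Optn and 1.41% at or below that of Sqstm1 with Calcoco1. The promoter stretches of the kinase gene Tbk1 and of Optn, whose product it phosphorylates, are shown as those of a kinase and its substrate, with no annotated exon overlapping them, and were chosen with these correlations known. They are the 250 bases before the start in the RefSeq annotation of GRCm38.p6 (mm10), read 5′ to 3′ on the minus strand, with GC boxes in capitals (GGGCGG or its reverse complement).
Optn chr2:5064118-5064367: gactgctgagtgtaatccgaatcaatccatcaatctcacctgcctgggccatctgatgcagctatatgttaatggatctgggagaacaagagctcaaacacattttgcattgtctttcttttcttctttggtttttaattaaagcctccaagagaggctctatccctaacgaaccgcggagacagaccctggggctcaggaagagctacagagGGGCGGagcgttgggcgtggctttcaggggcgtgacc
Tbk1 chr10:121586795-121587044: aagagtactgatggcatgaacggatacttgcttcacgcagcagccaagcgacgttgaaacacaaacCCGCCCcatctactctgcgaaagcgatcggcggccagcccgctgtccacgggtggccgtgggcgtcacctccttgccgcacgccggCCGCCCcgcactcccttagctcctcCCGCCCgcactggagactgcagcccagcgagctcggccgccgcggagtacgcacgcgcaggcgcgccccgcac

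Of the 8 members 7 had promoter entries, with 9 windows of 300 bases (250 before and the rest after the start); Calcoco2 had none. Both strands were searched for 5 motifs. The GC box GGGCGG was in 7 of the 9 windows and in at least 1 window of each of the 7 genes, against 35.7% of all 32851 windows. The median GC content was 57% in the members' windows and 52.7% in all. The E-box core CACGTG, which transcription factors of the TFEB family bind, was in the window of Tbk1 only, just after the start (7.15% of all windows), and the antioxidant response core TGACNNNGC was in 1 of the Tax1bp1 windows only (12.4%). The CCAAT box was in both windows of Nbr1 only (37.4%) and TATAAA in that of Sqstm1 only, across the start (13.6%). These are matches of letters, not binding sites.

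Tollip, which encodes an adaptor of ubiquitin and LC3 that also dampens signalling from interleukin-1 and Toll-like receptors (chromosome 7, 141874813 to 141918507, minus strand), was the member counted most evenly among the WT libraries. Its counts were 29, 66 and 10 there and 40, 15 and 35 under the DKO label, or 151, 255 and 52.5 against 90.5, 27.6 and 67.8 normalized CPM. WT libraries 1 and 2 were the highest of the 6, and WT library 3 lay within the range of those labelled DKO. The log2 fold change, -1.30 (SE 0.98, edgeR adjusted p = 0.579), stayed below 0 under each setting tried, between -1.71 and -0.51, as did that of Calcoco1, between -2.51 and -1.19.

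**Figure D2:**
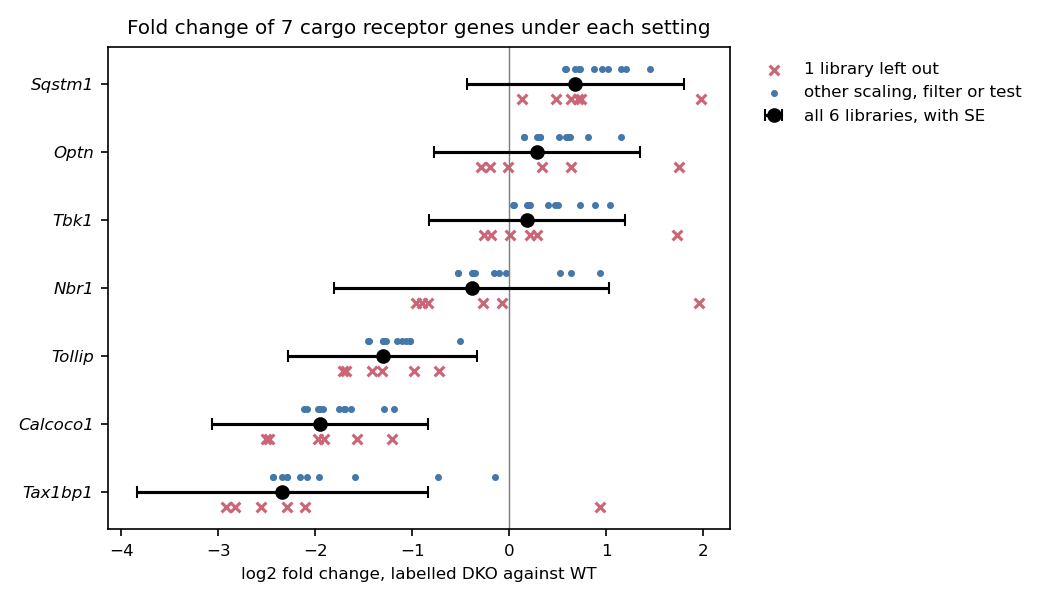
Log2 fold change (horizontal axis, libraries labelled DKO against WT) of the 7 members other than Calcoco2. Black points with bars are the values and SE over all 6 libraries, crosses leave out 1 library each, and blue dots use another scaling, filter or test; Tax1bp1 reached from -2.92 to 0.93 and Nbr1 from -0.96 to 1.96.

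To compare members with each other, levels were divided by the exonic length of each gene, giving normalized CPM per kb. This length is the union of exons over all annotated transcripts, 2 for Calcoco2 and 5 to 21 for the other members. It can exceed the length of the transcripts expressed here. Exonic lengths ran from 1.62 kb for Calcoco2 to 9.99 kb for Tax1bp1, so the division raised Calcoco2 the most. In the libraries labelled DKO the top and bottom of the order were the same in all 3: Nbr1 first (31.9, 97.5 and 49.6 per kb), Calcoco2 second (29.3, 59.0 and 28.7) and Calcoco1 last (0.789, 2.25 and 3.72). Each WT library had another leader, Tollip in library 1 (29.9), Nbr1 in library 2 (203) and Tax1bp1 in library 3 (102). Between them, the means in the libraries labelled DKO were 12.2 ± 6.29 for Tollip, 11.4 ± 2.14 for Tbk1, 9.62 ± 5.80 for Optn, 7.71 ± 0.446 for Sqstm1 and 7.23 ± 2.18 for Tax1bp1 (SD, n = 3), where neighbours in the order differed by less than the larger of their SDs. In the WT libraries the SD was larger than the mean for Nbr1 (77.8 ± 108), Tax1bp1 (36.7 ± 57.1), Tbk1 (9.81 ± 11.2), Optn (7.70 ± 8.61) and Sqstm1 (4.80 ± 5.60), while Tollip was at 30.2 ± 20.02 and Calcoco1 at 8.92 ± 7.76.

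As a share of the summed level per kb of the 8 genes, Calcoco2 made up 25.6%, 27.95% and 23.6% in the libraries labelled DKO. These shares use the values that selected it. Without division by length, Nbr1, Tollip and Tax1bp1 were above Calcoco2 in libraries 1 and 3 labelled DKO (Calcoco2 at 47.5 and 46.5 normalized CPM). In library 2 labelled DKO only Nbr1 was above it. By level per kb, Nbr1 made up 27.9%, 46.2% and 40.8% in the libraries labelled DKO, and 15.6%, 66.1% and 13.0% in the WT libraries. Tax1bp1 took 67.1% in WT library 3 and 0.126% in WT library 2. The coefficient of variation of normalized CPM ran from 66.2% to 155% for the 7 other members in WT and from 5.78% to 65.0% in those labelled DKO. Over all tested genes its median was 92.6% in WT and 49.7% under the DKO label.

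**Figure D3:**
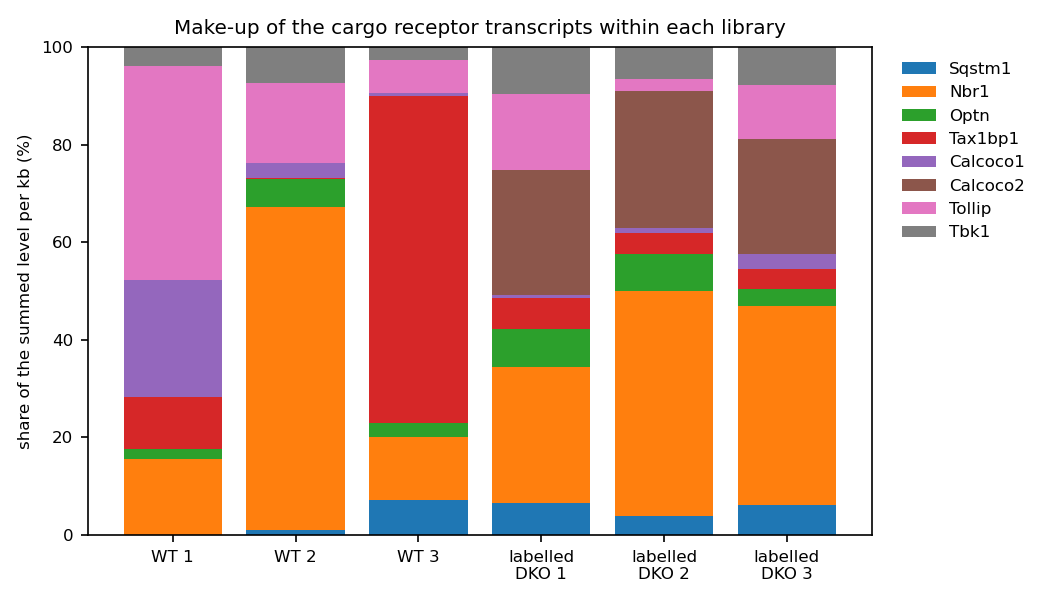
Share of each cargo receptor gene in the summed level per kb of the 8 genes (vertical axis, percent), 1 bar per library. Nbr1 and Calcoco2 led in each library labelled DKO, and the WT libraries were led by Tollip (43.8%), Nbr1 (66.1%) and Tax1bp1 (67.1%). Calcoco2 has the shortest exonic length of the 8 genes and was selected on these values.

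The gene position of Calcoco2 was examined for its neighbours. The nearest protein-coding genes, Atp5g1, a subunit of the mitochondrial ATP synthase, and Ttll6, a tubulin polyglutamylase, also had higher values in each library labelled DKO than in any WT library, as did 12.8% of all tested genes. Atp5g1, 23.7 kb away, had 4, 5 and 12 counts against 31, 43 and 116 (log2 fold change 1.86, SE 1.01, edgeR adjusted p = 0.455). Ttll6, 21.8 kb away, had 0, 8 and 9 against 26, 54 and 29 (1.44, SE 1.14, edgeR adjusted p = 0.599). Neither passed the test. Within 250 kb on either side there were 16 other protein-coding genes, of which 5 were tested, 4 with a log2 fold change above 0, where 45.5% of all tested genes were, and with a median of 0.30 against -0.17. Igf2bp1, Snf8 and Ube2z, the other 3, had groups that overlapped. Gip, 68.5 kb away and not tested, had 0 throughout WT and 4, 3 and 11 under the DKO label. Hoxb7 and Hoxb4, also not tested, had 0 throughout WT as well, against 3, 2 and 3 and 3, 2 and 1. That pattern was shared by 3.25% of all symbols. No annotated gene overlaps Calcoco2.

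**Figure D4:**
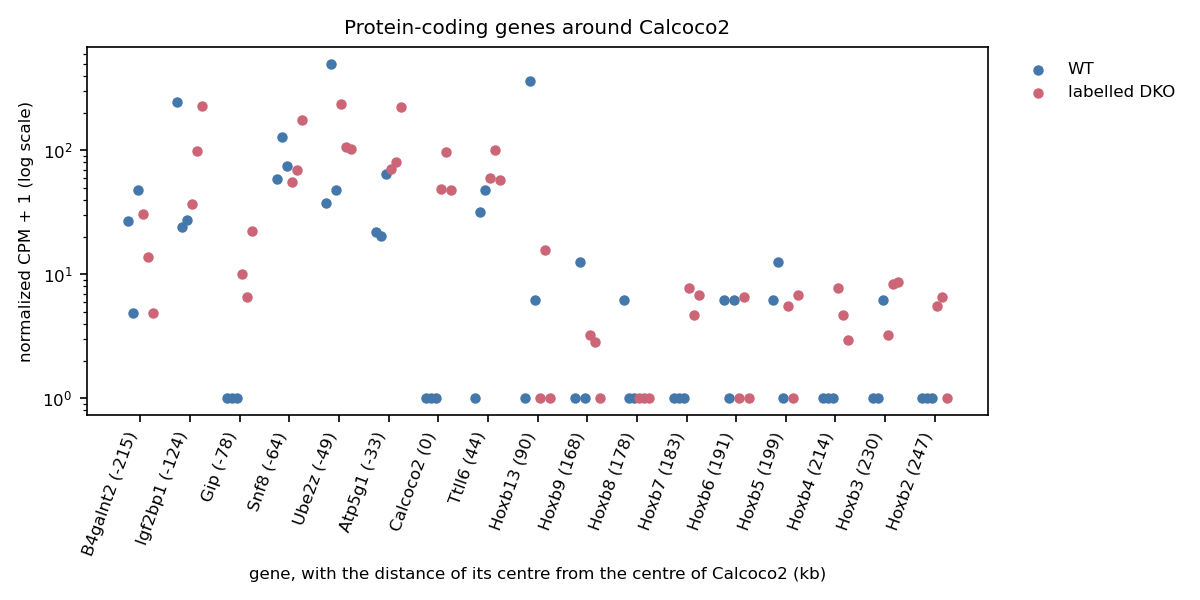
Normalized CPM plus 1 (vertical axis, log scale) of the protein-coding genes within 250 kb of Calcoco2, in order along the chromosome, with the distance between gene centres in kb in each label. Blue points are WT libraries and red points libraries labelled DKO. Calcoco2, Atp5g1 and Ttll6 have every red point above every blue one, as 12.8% of all tested genes do. So do Gip, Hoxb7 and Hoxb4, which had few counts and were not tested.

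The neighbours of the other members on chromosome 11 were read in the same way. Nbr1 lies head to head with Brca1, a DNA repair gene 193 bases away, which had 11, 21 and 54 counts against 222, 186 and 116. The groups of Brca1 overlapped on the normalized scale, though not with library totals alone (log2 fold change 1.34, SE 1.11, edgeR adjusted p = 0.621), and its highest library was not that of Nbr1. Tmem106a, on the other side of Nbr1, had 0, 23 and 16 against 25, 29 and 28 counts. Its groups also overlapped on the normalized scale, though not with library totals alone (log2 fold change -0.08, SE 1.16, edgeR adjusted p = 0.990). Beside Sqstm1, Mgat4b had 3, 0 and 0 against 1, 0 and 22 counts and Tbc1d9b 35, 5 and 9 against 3, 53 and 35. Mrnip overlaps Sqstm1 on the other strand and is not analysed here.

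The proteins that the cargo receptors bind on the membrane side, the ATG8 family, were counted sparsely. Of 5 genes 1 was tested, Map1lc3b, which encodes LC3B, with 0, 34 and 14 counts in WT against 32, 51 and 81 under the DKO label (log2 fold change 0.64, SE 1.20, edgeR adjusted p = 0.843). Gabarap had 2, 0 and 1 against 18, 11 and 8 counts, higher in each library labelled DKO, and was too low to be tested. Map1lc3a had 0 in all 6 libraries.

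Among 8 genes of autophagy initiation that act beside the receptors, 7 were tested, with 3 log2 fold changes above 0 and 4 below (median -0.16) and 0 past the threshold. Rb1cc1, which encodes FIP200, a partner of NDP52 and p62, had 6, 35 and 9 counts against 36, 29 and 30. The smallest p were those of Ulk1, the initiating kinase (35, 173 and 7 against 10, 3 and 28), Tecpr1, a tethering factor (68, 8 and 12 against 9, 27 and 8), and Wdfy3, which encodes the aggregate scaffold ALFY (29, 41 and 87 against 39, 32 and 122). Their log2 fold changes were -3.42 (SE 1.31), -2.37 (SE 1.14) and -0.997 (SE 1.04), with edgeR adjusted p of 0.390, 0.419 and 0.697. In each of the 3 the groups overlapped.

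Of 14 symbols for adaptors and partners of TBK1, 9 were tested, 5 above 0 and 4 below (median 0.09), with 0 past the threshold. Tbkbp1, a scaffold that activates TBK1, had lower values in each library labelled DKO, with 9, 29 and 7 counts against 3, 3 and 4 (log2 fold change -3.23, SE 1.00, edgeR adjusted p = 0.390). Rab8b, a small GTPase of vesicle traffic, had higher values in each, with 2, 4 and 2 against 29, 27 and 30 (2.21, SE 0.94, edgeR adjusted p = 0.403). Tmem173, which encodes STING, had 202, 142 and 1 counts against 0, 0 and 13, so that WT library 3 lay below library 3 labelled DKO (-5.93, SE 2.10, edgeR adjusted p = 0.390). Myo6, a motor that binds optineurin, NDP52 and TAX1BP1, was even across the libraries, with 8, 17 and 14 against 21, 42 and 36 counts, or 60.3 ± 16.5 against 64.8 ± 15.5 normalized CPM (SD, n = 3).

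Of 10 genes for linear ubiquitin chains and A20, 3 were tested, with a median log2 fold change of 0.08 and 0 past the threshold. Itch, a ubiquitin ligase that works with TAX1BP1 and A20, had higher values in each library labelled DKO (29, 27 and 39 counts against 95, 143 and 125; log2 fold change 0.65, SE 0.95, edgeR adjusted p = 0.792). Cyld, a deubiquitinase, had 6, 11 and 6 against 23, 20 and 12, and Tnfaip3, which encodes A20, had 8, 3 and 12 against 39, 5 and 9. The groups of both overlapped once normalized, with log2 fold changes of 0.08 and -0.01.

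Of 7 signalling partners of p62, 6 were tested, 5 above 0 and 1 below, where 45.5% of all tested genes were above 0 (64.3% with library totals alone), with a median log2 fold change of 0.86 and 0 past the threshold. Prkcz, an atypical protein kinase C, had 0, 4 and 4 counts against 16, 37 and 39 (2.26, SE 1.12, edgeR adjusted p = 0.420), and Traf6, a ubiquitin ligase, had 6, 7 and 3 against 17, 28 and 24 (0.87, SE 0.89, edgeR adjusted p = 0.695). Both had higher values in each library labelled DKO, as did 12.8% of all tested genes. Map2k5, a MAP kinase kinase, had 4, 15 and 8 against 25, 75 and 51, with groups that overlapped once normalized. Keap1, the binding partner through which p62 acts on NRF2, was not tested, with 28, 0 and 0 counts against 10, 4 and 4.

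Of 10 NRF2 target genes, 5 were tested, 2 above 0 and 3 below (median -0.46), with 0 past the threshold. Gsr, glutathione reductase, had 16, 4 and 1 counts against 8, 35 and 129, Gclc, a subunit of glutamate-cysteine ligase, 18, 232 and 5 against 109, 24 and 21, and Gclm, the other subunit, 4, 0 and 9 against 16, 21 and 33. In each of the 3 the groups overlapped. Nqo1, a quinone reductase often read as an NRF2 target, was not tested and had the pattern of Calcoco2, with 0 throughout WT and 12, 2 and 49 counts under the DKO label. Its mean was at least 8.95-fold above the same floor for the whole WT group, and at least 3.29-fold without library 3 labelled DKO, which held 75.5% of its summed normalized CPM.

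Of 9 partners of TOLLIP, 5 were tested, 2 above 0 and 3 below (median -0.003), with 0 past the threshold. Il1r1, the interleukin-1 receptor, had 11, 5 and 84 counts against 15, 19 and 10, Il1rap, its co-receptor, 11, 9 and 10 against 12, 14 and 20, and Tom1l2, an endosomal partner, 7, 29 and 18 against 38, 31 and 198. In each of the 3 the groups overlapped once normalized. Despite its counts, Il1rap had a lower normalized mean under the DKO label, 30.5 against 48.2 in WT (log2 fold change -0.65, SE 0.88, edgeR adjusted p = 0.773). Tlr2 had 1, 2 and 0 against 16, 17 and 10 counts and was not tested. Among 5 genes of galectins and their partner TRIM16, which mark damaged vesicles, Lgals9 was the 1 tested, with 308 of its counts in WT library 2 and 4 and 3 in the other WT libraries, against 39, 49 and 39. Lgals8, the galectin that NDP52 recognises, had 12, 0 and 0 against 5, 2 and 2.

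Of 17 genes of other selective autophagy receptors, 14 were found by symbol and 5 tested, 4 above 0 and 1 below (median 0.38), with 0 past the threshold. Nufip1, a receptor for ribosomes, had 2, 0 and 6 counts against 35, 16 and 21 (log2 fold change 1.85, SE 1.18, edgeR adjusted p = 0.516). Rtn3, a receptor for tubules of the endoplasmic reticulum, had 234, 9 and 7 against 37, 94 and 47, with the WT value resting on library 1. Bcl2l13, a mitochondrial receptor, had 17, 7 and 7 against 23, 56 and 27, and Ncoa4, the ferritin receptor, 2, 19 and 6 against 21, 28 and 23. In each of these tested genes the groups overlapped once normalized. Fundc1, not tested, also had the pattern of Calcoco2, with 0 throughout WT and 1, 5 and 1 counts under the DKO label. That pattern was shared by 3.25% of all symbols. Each of these list medians is to be read against the -0.17 of all tested genes, and with library totals alone against 0.62. Over all these lists, the counts above 0 stand beside 45.5% of tested genes, and the genes without overlap beside 12.8% with higher and 6.39% with lower values under the DKO label.

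Markers of other spleen cells were summed per library on the normalized scale. Of the 8 erythroid and platelet markers 6 had counts, and their sum was 184 to 336 normalized CPM in WT and 22.6 to 48.4 in those labelled DKO, without overlap. Hbb-bs and Hba-a2 were at 0 throughout, and Itga2b had 22, 72 and 18 counts against 7, 12 and 7. Sums of B cell markers (10 of 10 with counts) did not overlap either, with 440 to 956 against 324 to 401. That separation rests on Blnk, at 554, 81.1 and 305 against 56.5, 66.3 and 71.7 normalized CPM. Blnk was the only 1 of the 10 whose own groups did not overlap. Sums overlapped for T cell (8 of 8 with counts, 188 to 987 against 143 to 225), plasma cell (5 of 6, 94.0 to 194 against 60.0 to 342), monocyte and macrophage (7 of 8, 73.1 to 657 against 396 to 813) and neutrophil markers (9 of 9, 220 to 399 against 131 to 1249). The overlap of sums does not hold for each gene: among the monocyte and macrophage markers Itgam (1, 9 and 21 against 81, 181 and 147 counts) and Lyz2 (4, 0 and 10 against 35, 92 and 206) had higher normalized values in each library labelled DKO, as did the T cell markers Cd3e and Lck and the neutrophil marker Ngp. Sdc1 of the plasma cell list and Ltf of the neutrophil list had lower values in each. Of all tested genes, 12.8% had such higher values and 6.39% such lower ones, and some of these markers were not tested. The part of these cell types in the values of Calcoco2 and the other members was not tested. In sorted bulk samples, fewer cells of a type and less RNA per cell cannot be told apart.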

How the data were processed

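The deposited file is a single table of gene-level read counts without normalization by the authors. CASAVA, STAR, edgeR, R 3.6.3 and mm10 appear, with no role given, per the submitters' processing notes; the counting tool and its strand setting are not stated there or in the labels. Columns were matched to samples by name, and 0 were left unmatched. Genes were kept by filterByExpr (minimum count 10), scaled by TMM and tested in R 4.3.3 with edgeR 4.0.16 (and limma 3.58.1) by the robust quasi-likelihood F test over all 6 libraries without covariates, adjusted by Benjamini-Hochberg over 8895 genes at 0.05. The SE was obtained by dividing the absolute log2 fold change by the root of F. Floors hold for counting error alone, because reads of amplified cDNA do not count separate molecules. Positions and exonic lengths are from GENCODE M21, matched by symbol for 8 of 8 members (Python 3.11.15).

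The members and the gene lists were chosen with earlier results of these data known. Named genes were the members, Bnip3l and Bnip3, up to 3 genes of each list with the smallest p, the nearest protein-coding neighbours of the chromosome 11 members and the 5 genes most like Calcoco2; other genes named were chosen after their values were seen, as was the window of 250 kb. The edgeR steps were run on simulated data as a check of the code. Its passing condition was set at a lower spread than that of these data, whose biological coefficient of variation was 0.915. The check therefore gives no measure of power here. Same-numbered libraries were checked for pairing and shared little, although each correlated best with its own number. They were treated as unpaired, and so few libraries cannot exclude pairing. Alternatives were other scalings, filters, DESeq2 1.42.0, limma-voom, the replicate block and leaving out each library. A further gene list is not reported here.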

Additional observations from a re-analysis of the deposited data

How the results depend on the processing

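Of the 7 members other than Calcoco2, 0 passed an adjusted p of 0.05 under any of the alternatives run (smallest adjusted p 0.183; Sqstm1 had none in DESeq2 on all genes). Of 119 values over members and alternatives, 109 kept their direction and 10 reversed. Nbr1 was at 0.53 with no scaling factors, 0.64 with the replicate block, 0.94 in limma-voom and 1.96 without WT replicate 2. Without WT replicate 1, Optn was at -0.19 and Tbk1 at -0.25. Without WT replicate 3, Optn was at -0.01, Tbk1 at -0.18 and Tax1bp1 at 0.93. Without DKO replicate 2, Optn was at -0.28. With 1 library left out, Nbr1 ran from -0.96 to 1.96, Optn from -0.28 to 1.75, Tax1bp1 from -2.92 to 0.93 and Tbk1 from -0.25 to 1.74. The cause was not tested. DESeq2 on all genes called 47 genes higher and 168 lower (1.95% of genes with an adjusted p), and on the kept genes, an alternative chosen after seeing the data, 218 and 383 (7.08%); in each run the 1 member among them was Calcoco2, which these same values chose, so this is no test of it. Without the low-count filter edgeR called 22 genes higher and 108 lower. The Calcoco2 fold against its floor was 8.05 to 16.9 under the other settings run, 8.05 being without WT replicate 2, and 23.8 with no scaling factors. Genes with counts in all DKO and no WT libraries were 132 at a minimum of 5 counts and 1570 to 2088 with 1 library left out; the opposite pattern had 2 and 107 to 142. Leaving out a library raises these counts by construction, since fewer libraries must agree. Same-numbered libraries shared little (r of deviations 0.0227, 0.0265 and 0.0368), although each correlated best with its own number; with the replicate block 0 genes passed. Few counts per gene limit all values.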
